A study of Bombus terrestris with 25 samples.

Results

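LOC100651307 is a gene of Bombus terrestris, the buff-tailed bumble bee, that the deposited table names serine protease inhibitor 3-like. It was 1 of 3861 genes in a table of read counts from 25 libraries, and 1 of 3793 genes with enough reads to be tested. The gene was chosen from its measured levels in these libraries, because they were high in colony-founding queens and low in all other queens. Its differences between the groups are therefore given as a description with a standard error (SE) and without a p-value, and only its use of exons and its differences between genetic lines, which the choice did not use, were tested.

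Serpins are a family of secreted and intracellular proteins, most of which inhibit serine proteases by a bait loop. The target protease cuts the loop and is trapped in a covalent complex with the serpin, so that each serpin molecule is spent in 1 reaction. In insects the fat body, which combines roles of liver and adipose tissue, releases many serpins into the blood, and in flies, moths and beetles serpins restrain the protease cascades that lead to Toll signalling and to melanin. The target of LOC100651307 is not known from the files.

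The series measured polyA RNA of the eviscerated abdomen with attached fat bodies, and each library came from 1 queen. Founders post diapause were 4 months old and had spent 9 to 10 weeks at 4 C before they laid eggs and founded a colony. Founders post CO2 were 1.5 months old and had been anaesthetised with pure CO2 on 2 occasions 24 h apart, about 1 month before sampling. Diapause queens were sampled at the end of 9 to 10 weeks at 4 C, at 3 months by the sample labels. CO2-treated queens were sampled 24 h after treatment, and both they and the untreated mated queens were 5 to 10 days old by the labels. Every queen had mated, each group had 5 queens, and all groups were kept with unlimited sucrose solution and pollen outside the cold. Founding, age and time since treatment changed together, so their parts in a founder difference cannot be told apart. In these bulk samples a change in the share of a cell type and a change in RNA per cell cannot be told apart either.

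Each library had between 534806 and 4057781 counts in the table. Of the libraries, 3 stood apart. CO2-treated replicate 3 and mated replicate 2 had 534806 and 586405 counts, against at least 2432559 in the other 23. Thinned to the same total they were also the most alike pair of libraries, where a chi-square test of their counts gave 2.30 per degree of freedom, and 5.12 for the next pair. Diapause replicate 1 lay at -4.09 on the first principal component, which held 61.6% of the variance, while the other 4 diapause libraries lay between -73.5 and -45.7 and the 10 founders between 5.85 and 104.2. Markers of the labelled tissue were present in every group. Vitellogenin-6-like and both hexamerin-like genes, storage proteins of the fat body, summed to 106 to 475 CPM (each count relative to all counts of its library in the table, scaled by TMM factors) in founders post diapause, 59.1 to 1108 CPM in founders post CO2, 3402 to 10324 CPM in diapause, 229.6 to 19003 CPM in CO2-treated and 213 to 46181 CPM in mated queens.

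The reads of LOC100651307 lay in 2 counted intervals of 1 transcript, XM_003402976.1, on the unplaced scaffold GroupUn943. The first interval covered positions 3571 to 4166 (596 bases) and the second positions 5888 to 6195 (308 bases), with 1721 bases between them. Neither the genome build nor the strand is given in the sources used here. No other gene of the count table lay on this scaffold, so that no neighbouring gene can be set beside it.

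How high the transcript stood in each queen was asked first. In founders post diapause it reached 17664, 1540, 3494, 2027 and 1590 CPM in replicates 1 to 5. Founders post CO2 had 5438, 925, 4474, 497 and 232 CPM. In the diapause queens it had 88.6, 10.4, 10.0, 12.4 and 4.66 CPM. The lowest founder, at 232 CPM, had 2.62 times the level of the highest of the other 15 queens, diapause replicate 1, so that the founders did not overlap with the rest. In CO2-treated queens the transcript had 23.5, 22.0, 15.6, 9.18 and 25.2 CPM. Mated queens had 55.0, 10.3, 5.27, 7.79 and 21.3 CPM. The 3 groups that were not founders overlapped with each other almost fully. All 10 founders above all 15 other queens is a pattern that 49 of the 3793 tested genes showed, 1.29%, and it is the pattern by which the gene was chosen.

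**Figure D1:**
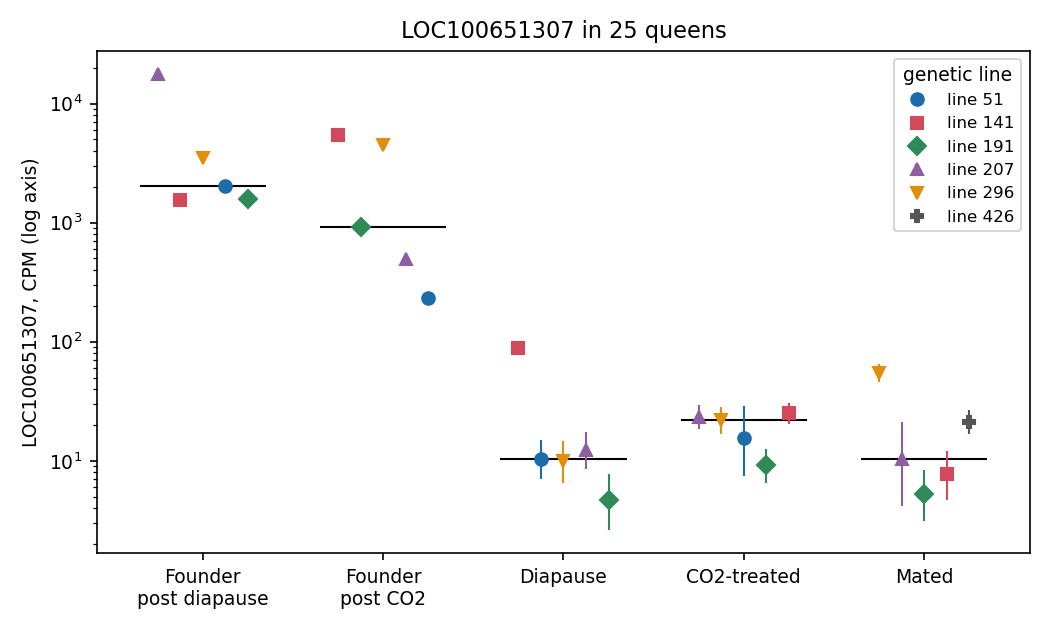
Level of LOC100651307 in CPM on a log axis for each of the 25 queens, by group, with symbols for the genetic line, black lines for group medians and bars for exact 95% Poisson intervals of the count. The 10 founders sit between 232 and 17664 CPM and the other 15 queens between 4.66 and 88.6 CPM.

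The counts behind these levels differed as widely. Founders had 822 to 37588 reads of the gene, against 7 to 304 in the other queens. In founder post diapause replicate 1 the gene took 1.07% of all counts of the table and was its 7th most counted gene. In founder post CO2 replicate 5 it took 0.0298% and ranked 910th. In the other 15 queens it ranked between 2011th and 3604th. The 7 reads of mated replicate 2 gave an exact 95% Poisson interval of 4.14 to 21.2 CPM, and the 10 reads of CO2-treated replicate 3 an interval of 7.49 to 28.7 CPM. Both contain the medians of the mated and diapause groups, 10.3 and 10.4 CPM, and these intervals cover counting error only. The 304 reads gave diapause replicate 1 an interval of 78.9 to 99.1 CPM, which holds no other queen of its group.

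By group, the mean was 5263 ± 6978 CPM in founders post diapause (SD, n = 5) and the median 2027 CPM. Founders post CO2 had a mean of 2313 ± 2449 CPM and a median of 925 CPM. Diapause queens had 25.2 ± 35.5 CPM and a median of 10.4 CPM, CO2-treated queens 19.1 ± 6.62 CPM and a median of 22.0 CPM, and mated queens 19.95 ± 20.6 CPM and a median of 10.3 CPM. In order of the median the groups ran founder post diapause, founder post CO2, CO2-treated, diapause and mated. The step from the founder groups to the rest was the only one of these beyond the spread within groups: the founder groups overlapped, and so did each pair among the other 3. The spread was wide by the standard of the table, with a coefficient of variation between queens of 90.2% in the fit, against 46.1% for the median gene.

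On the log2 scale the fit gave 7.70 ± 1.16 for founders post diapause against diapause queens (SE, n = 5 and 5), a fold of 208. For founders post CO2 against CO2-treated queens it gave 6.91 ± 1.13, a fold of 120. In each comparison only 1 of the 3793 genes had a larger positive log2 fold change. It was the hypothetical protein LOC100649478 after diapause (8.63 ± 1.29) and the hypothetical protein LOC100648536 after CO2 (9.49 ± 1.86), both looked up after their values were seen. Against mated queens the log2 difference was 8.03 ± 1.18 in founders post diapause and 6.84 ± 1.12 in founders post CO2. Without diapause replicate 1 the first of these comparisons gave 9.11, and without founder post diapause replicate 1 it gave 6.36, while leaving out founder post CO2 replicate 1 gave 6.32 in the comparison after CO2. The differences from mated queens moved to 8.86 and 7.68 without mated replicate 1, to 6.71 after diapause without founder post diapause replicate 1 and to 6.24 after CO2 without founder post CO2 replicate 1.

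Between the treatments themselves the differences were small beside their errors. Diapause minus mated gave 0.33 ± 0.89 on the log2 scale, CO2-treated minus mated -0.07 ± 0.90 and diapause minus CO2-treated 0.40 ± 0.89. The sign of the first and the last rested on diapause replicate 1, without which they were -1.16 and -1.11. Without mated replicate 1 the first was 1.17 and CO2-treated minus mated was 0.77. Reads of this gene were few in all 3 groups, and differences of these sizes were not resolved at this depth and spread.

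Whether the route to founding mattered was asked by the founder groups themselves. Founders post diapause minus founders post CO2 gave 1.19 ± 0.88 on the log2 scale, and -0.09 without founder post diapause replicate 1, the highest queen. Without founder post CO2 replicate 1 it was 1.78. The change after diapause less the change after CO2 was 0.79 ± 1.24. It was -0.51 without that founder, so that its sign rested on a single queen. Leaving out diapause replicate 1 gave 2.30, leaving out founder post CO2 replicate 1 gave 1.38, and the fit with the genetic line as a term gave 1.54.

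The queens came from 6 genetic lines. Lines 141, 191, 207 and 296 had 1 queen in all 5 groups, line 51 had 1 in every group but the mated queens, and line 426 had a mated queen alone. In line 207 the founder post diapause had 17664 CPM and the diapause queen 12.4 CPM, a fold of 1424, the largest of the 5 lines. In line 141 the founder post diapause had 1540 CPM against 88.6 CPM in the diapause queen, a fold of 17.4, the smallest. After CO2 the order of this pair of lines was turned round. The founder post CO2 of line 141 had 5438 CPM against 25.2 CPM in its CO2-treated queen, a fold of 216, and that of line 207 had 497 CPM against 23.5 CPM, a fold of 21.1. The founder was higher than its line's treated queen in 5 of 5 lines on both routes, while founders post diapause exceeded founders post CO2 of their line in 3 of 5. In edgeR's quasi-likelihood test of the line terms the gene had an unadjusted p of 0.0550 and a Benjamini-Hochberg adjusted p of 0.998 over 3793 genes. This test called 0 genes, 0% of those tested, with 142 at an unadjusted p under 0.05. The DESeq2 likelihood ratio test called 10 genes, with an unadjusted p of 0.0123 and an adjusted p of 0.441 for this one. Without line 426 the edgeR test gave it an unadjusted p of 0.0317 and an adjusted p of 0.947. No line was thus resolved as higher or lower, with 1 queen per line and group.

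Among the founders the level moved with the makeup of the whole library. The 4 founders with the highest levels, 3494 to 17664 CPM, were the 4 with the lowest TMM factors, 0.605 to 0.805. The other 6 founders had 232 to 2027 CPM and factors of 1.00 to 1.29. The factor divides the CPM, so a low factor by itself raises the level it is set beside. Without any factor the same 4 founders had 2530 to 10688 CPM and the other 6 had 298 to 2036 CPM. Founder post diapause replicate 1 was still the highest founder and founder post CO2 replicate 5 the lowest. Position on the first principal component followed a similar order, with 101.2 for founder post diapause replicate 1 and 5.85 for founder post CO2 replicate 5. The part of this in the spread between founders was not tested.

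Markers of cell types outside the fat body were set beside the levels, since an eviscerated abdomen can hold other tissue. Of 5 germ line and ovary markers, 3 rose and 2 fell in founders post diapause, and 3 rose and 0 fell in founders post CO2. Of all genes tested, edgeR called 40.2% higher and 40.6% lower after diapause, and 14.8% higher and 13.6% lower after CO2, at an adjusted p under 0.05. The maelstrom homolog (LOC100644702), of a pathway that silences transposons in the germ line, rose by 4.38 ± 0.59 and by 5.49 ± 0.63 on the log2 scale. The piwi-like gene (LOC100646008), which binds the small RNAs of that pathway, rose by 2.71 ± 0.58 and by 3.29 ± 0.59. The third that rose was vitellogenin receptor-like (LOC100649042), by 2.82 ± 0.80 and by 3.72 ± 0.83, with edgeR adjusted p of 0.00302 and 0.00339. The genes that fell after diapause were the bicaudal D-related gene LOC100650109, by 2.76 ± 0.54, and nanos homolog 3-like (LOC100642642), by 1.51 ± 0.55, with edgeR adjusted p of 0.00015 and 0.0155. After CO2 their log2 fold changes were -0.36 and 0.49, with adjusted p of 0.584 and 0.472. The sum of the list was 209 to 2555 CPM in founders post diapause, 1307 to 6163 CPM in founders post CO2, 385 to 1488 CPM in diapause, 247 to 691 CPM in CO2-treated and 276 to 721 CPM in mated queens. Within the founders, founder post diapause replicate 1, the highest for LOC100651307, had the lowest sum at 209 CPM. Both founders post CO2 with the lowest levels of LOC100651307 had the highest sums, 6163 and 4977 CPM. The remaining founders had sums of 1063 to 2555 CPM, and the relation between sum and level was not tested. No marker of this list was at 0 in a whole group.

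**Figure D2:**
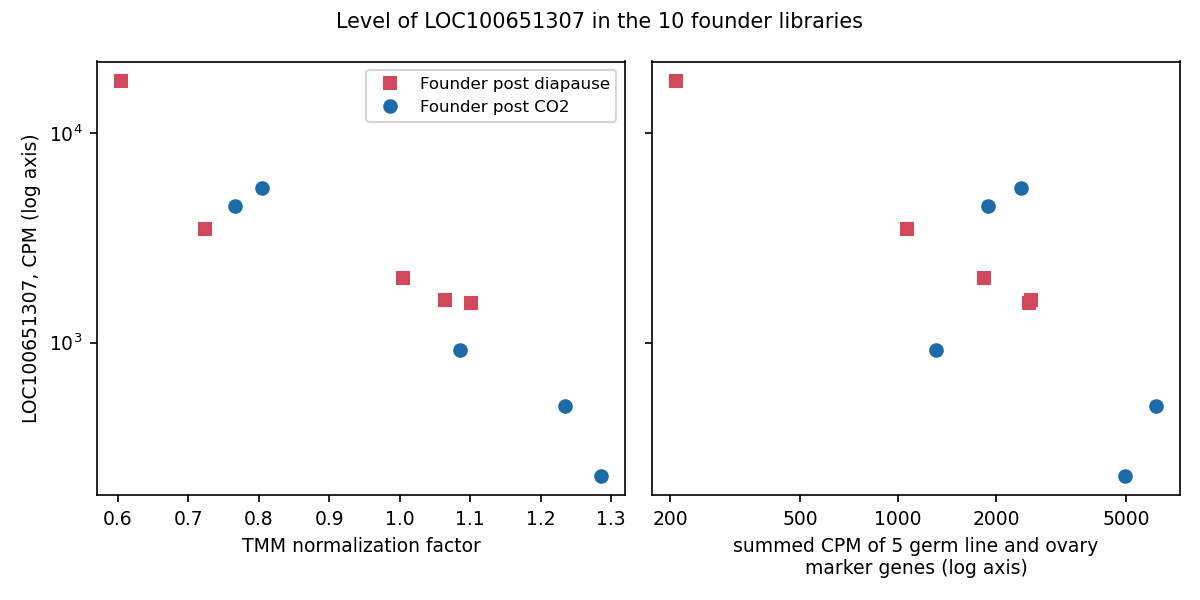
Level of LOC100651307 in CPM on a log axis in the 10 founder libraries, against the TMM factor on the left and against the summed CPM of 5 germ line and ovary markers on the right. The highest founder, at 17664 CPM, has the lowest factor, 0.605, and the lowest marker sum, 209 CPM. The factor divides the CPM, so the axes on the left are linked.

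Of 8 gut markers, 4 rose and 0 fell in founders post diapause, where 40.2% of all genes tested rose and 40.6% fell, and 0 were called in founders post CO2, where 14.8% rose and 13.6% fell. Their sum was 191 to 23573 CPM in founders post diapause, 115 to 5848 CPM in founders post CO2, 128 to 2000 CPM in diapause, 278 to 10973 CPM in CO2-treated and 67.4 to 2262 CPM in mated queens. Founder post diapause replicate 1 had 191 CPM of them, inside the range of the diapause queens. Replicate 3 of that group had the 23573 CPM. Without it alpha-glucosidase-like (LOC100643608), maltase 1-like (LOC100646641) and alpha-amylase-like (LOC100649744) lost their calls, at edgeR adjusted p of 0.0707, 0.0642 and 0.0839. The gut list also held cathepsin O-like (LOC100650715), which was not called. Of 11 hemocyte markers, blood cell genes that a pattern on names had gathered together with integrins, 2 rose and 7 fell after diapause, and 1 rose and 2 fell after CO2. Of 8 muscle markers, 3 rose and 3 fell after diapause, and 0 rose and 2 fell after CO2. Both counts stand beside the same shares of all genes, 40.2% higher and 40.6% lower after diapause and 14.8% and 13.6% after CO2. The muscle pattern also caught myosins that are not specific to muscle, myosin regulatory light chain sqh-like (LOC100644439), which rose by 1.67 ± 0.43 after diapause, and myosin heavy chain 95F-like (LOC100644340), which fell by 1.17 ± 0.45, with edgeR adjusted p of 0.0014 and 0.0213. The hemocyte pattern also caught names that only contain the word integrin. The disintegrin genes LOC100649309 and LOC100650487 fell by 2.24 and 1.49 after diapause (edgeR adjusted p 0.00176 and 0.0195). Calcium and integrin-binding LOC100648991 rose by 1.35 (0.00998). Hemocytin-like (LOC100642980) fell by 1.50 (0.0346), a call lost without any 1 of 9 libraries, at edgeR adjusted p of 0.0523 to 0.125. Croquemort-like (LOC100650182) and the phenoloxidase LOC100648607 were not called. Muscle sums lay between 3910 and 22407 CPM over all groups, and hemocyte sums between 1724 and 8204 CPM. The part of these tissues in the level of LOC100651307 was not tested beyond these values.

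The 2 intervals gave a readout that the choice of the gene had not used. The first interval holds 65.9% of the counted length and took most of the reads. Its share was 81.6, 78.8, 82.5, 82.1 and 80.5% in founders post diapause. Founders post CO2 had 80.8, 80.9, 82.4, 81.0 and 80.3%. These 10 libraries lay within a span of 78.8 to 82.5% although their levels differed by 76.3 times. In diapause queens the share was 79.9, 73.3, 72.0, 78.1 and 66.7%, from 15 to 304 reads a library. CO2-treated queens had 80.0, 73.0, 80.0, 91.9 and 81.4%, from 10 to 102 reads, and mated queens 82.6, 71.4, 83.3, 78.9 and 78.4%, from 7 to 132 reads. Shares scattered more widely where reads were few.

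**Figure D3:**
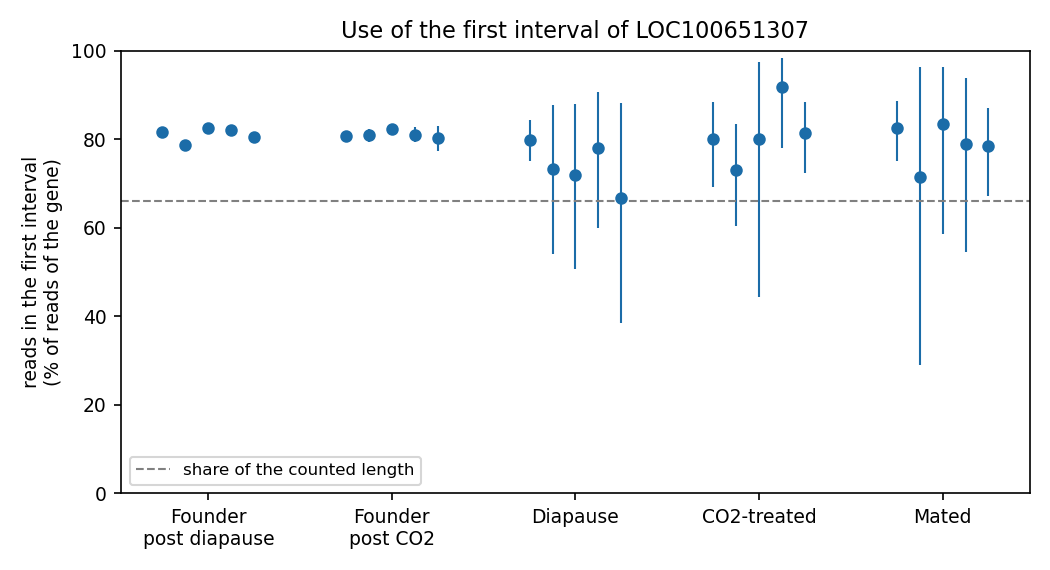
Share of the reads of LOC100651307 in its first interval for each queen, by group, with exact 95% binomial intervals of the count and a dashed line at the 65.9% of the counted length that the interval holds. The 10 founders sit between 78.8 and 82.5%, and the other queens between 66.7 and 91.9% with wide intervals.

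Pooled over queens, the first interval held 81.5% of 66366 reads in founders post diapause and 78.3% of 406 reads in diapause queens. The exact 95% Clopper-Pearson intervals were 81.2 to 81.8% and 74.0 to 82.2%. For founders post CO2 it was 81.4% of 31619 reads (81.0 to 81.9%), in CO2-treated queens 80.5% of 287 (75.4 to 84.9%) and in mated queens 80.8% of 250 (75.4 to 85.5%). These intervals treat pooled reads as independent and leave out the spread between queens. Diapause replicate 1 alone gave 304 of the 406 diapause reads, with a share of 79.9%, so that the pooled diapause share is mostly that of 1 queen. In edgeR's test of differential interval use the gene had an adjusted p of 1 in each of 4 comparisons. That test called 8.91% of 3007 genes in founders post diapause against diapause, 4.22% in founders post CO2 against CO2-treated, 0.299% between the founder groups and 11.6% in all founders against all others. An exact permutation test over queens, two-sided and added after the shares were seen, gave a mean of 81.1 ± 1.50% in founders post diapause and 74.0 ± 5.25% in diapause queens (SD, n = 5 each), a difference of 7.09 points with p = 0.0159 and an adjusted p of 0.0635 over 4 comparisons. Founders post CO2 and CO2-treated queens averaged 81.1 ± 0.777% and 81.3 ± 6.79%, with an exact permutation p of 0.929 and an adjusted p of 0.984. No change in the relative use of the 2 intervals was resolved.

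The table held 6 other serpins, and all were tested. Of these, 5 rose and 1 fell in founders post diapause against diapause, at an edgeR adjusted p under 0.05 over all genes. Of all genes tested, 40.2% were called higher and 40.6% lower in that comparison. In founders post CO2 against CO2-treated queens 2 rose and 0 fell, against 14.8% and 13.6% of all genes, and with the genetic line as a term 1 rose. The median log2 fold change of the 6 was 2.61 after diapause, against 0.28 over all genes, and 2.04 after CO2, against 0.07. No serpin was called between the founder groups, where edgeR called 0 genes, 0%, with 273 at an unadjusted p under 0.05, and DESeq2 called 8. The 5 serpins that rose after diapause had log2 differences of 1.52 to 2.37 there, with an edgeR adjusted p of 0.616.

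**Figure D4:**
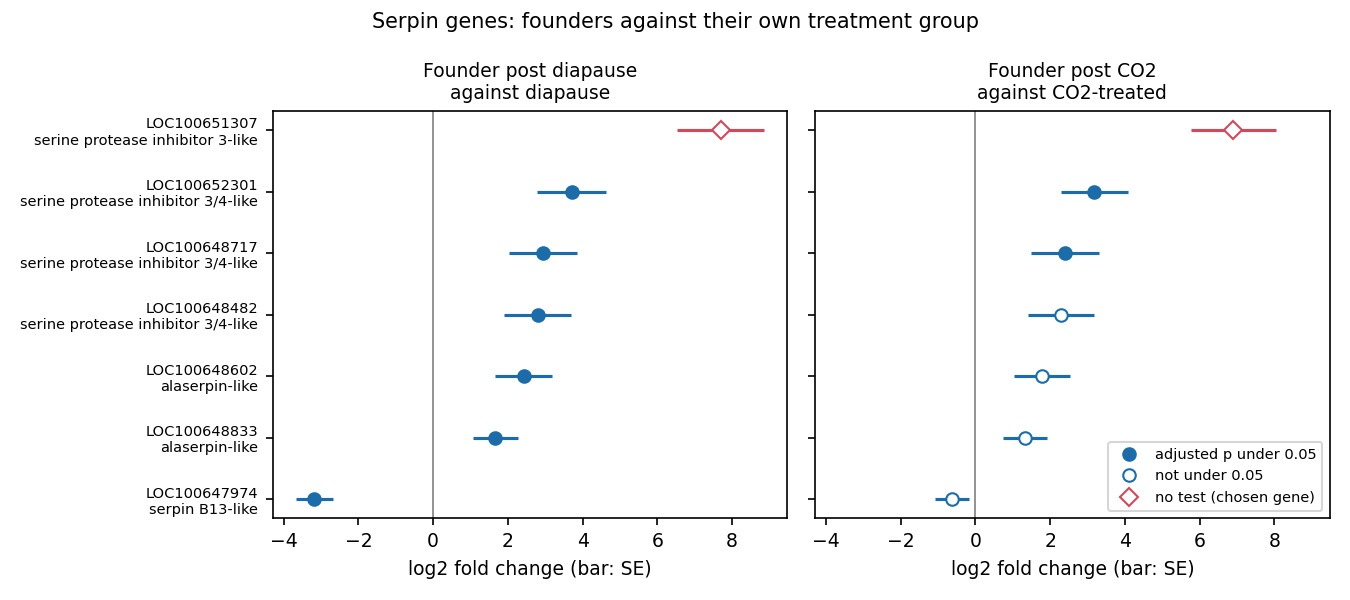
Log2 fold change with SE of the 7 serpin genes in founders post diapause against diapause (left) and founders post CO2 against CO2-treated queens (right), with filled symbols where the edgeR adjusted p was under 0.05 and no test for LOC100651307. LOC100651307 stands at 7.70 and 6.91 and the other serpins at most at 3.71 and 3.18.

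LOC100652301, a partial serine protease inhibitor 3/4-like gene on another unplaced scaffold, GroupUn430, had the largest of the 6 changes. It had 16797, 2400, 9190, 7249 and 6704 CPM in founders post diapause, against 1224, 429.6, 882, 359.7 and 331 CPM in diapause queens. The groups did not overlap, and the log2 fold change was 3.71 ± 0.92 with an edgeR adjusted p of 0.00111. In founders post CO2 it had 2948, 1642, 3464, 68.5 and 42.0 CPM, against 259, 153, 54.7, 211 and 220.3 CPM in CO2-treated queens. Founder replicates 4 and 5, the lowest founders for LOC100651307 as well, lay inside or below the range of the CO2-treated queens. The log2 fold change was 3.18 ± 0.90 with an adjusted p of 0.0144.

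The other 4 that rose after diapause lie side by side on scaffold Group11.4, between positions 7849860 and 7893434. These are a pair of serine protease inhibitor 3/4-like genes, LOC100648482 and LOC100648717, and a pair of alaserpin-like genes, LOC100648602 and LOC100648833, of which the table marks the second as a miscellaneous RNA. Alaserpin is the name of a moth blood serpin whose gene makes inhibitors with different bait loops. Whether these neighbouring genes share reads was not tested, and how the authors' counting treated such reads is not stated. LOC100648717 had 15650, 2565, 12134, 7331 and 6389 CPM in founders post diapause, against 1874, 744, 1581, 722 and 827 CPM in diapause queens, a log2 fold change of 2.94 ± 0.92 with an edgeR adjusted p of 0.00614. The groups did not overlap. After CO2 its log2 fold change was 2.40 ± 0.90 with an adjusted p of 0.0480, and this call was lost when any 1 of 20 of the 25 libraries was left out and, with the genetic line as a term, at an adjusted p of 0.0766. After diapause the log2 fold changes of the other genes of this scaffold were 2.80 ± 0.90 for LOC100648482, 2.42 ± 0.76 for LOC100648602 and 1.66 ± 0.60 for LOC100648833, with edgeR adjusted p of 0.00740, 0.00607 and 0.0148. The last call was lost without founder post diapause replicate 1, with an adjusted p of 0.0579. After CO2 their log2 fold changes were 2.30, 1.78 and 1.33, with edgeR adjusted p of 0.0523, 0.0675 and 0.0855. All 3 passed without founder post CO2 replicate 4 (0.0292, 0.0365 and 0.0473) or without replicate 5, the founders post CO2 with the lowest serpin levels, the first and second also without mated replicate 2 (0.0376 and 0.0496), and the first also without mated replicate 5 (0.0458).

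Serpin B13-like (LOC100647974) on Group8.3, which bears the name of a mammalian intracellular serpin, ran the other way. It had 31.96, 152, 104.5, 87.9 and 105 CPM in founders post diapause, against 234.5, 1600, 1269, 814 and 448 CPM in diapause queens. It fell by 3.18 ± 0.49 on the log2 scale, with an edgeR adjusted p of 1.94e-05. In founders post CO2 against CO2-treated queens its log2 fold change was -0.62 ± 0.45, with an adjusted p of 0.277. This was the only serpin with a negative correlation with LOC100651307, r = -0.79 over the 25 libraries.

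Levels of different genes were compared per length, as CPM per kilobase of counted interval. LOC100651307 had a median of 2242 in founders post diapause and was 6th of the 7 serpins, below LOC100652301 at 5463 and LOC100648717 at 18146. In founders post CO2 it was again 6th, at 1023, below LOC100652301 at 1237. In diapause, CO2-treated and mated queens it was the lowest of the 7, at 11.5, 24.3 and 11.4 CPM per kilobase, against medians of 323.7, 159 and 265 for LOC100652301. The other serpins were also present outside the founders: of the 6, none had every founder above every other queen, and for LOC100652301 8 of the 10 founders did.

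Correlations over the 25 libraries of log2 CPM, which share the divide between founders and the rest, were used only to describe likeness. Between LOC100651307 and the 5 serpins that rose after diapause r was 0.50 to 0.72, and within the 10 founders 0.79 to 0.85. The 5 genes with the highest r were the 40S ribosomal protein S29-like gene (LOC100646020, r = 0.95), gamma-glutamyl hydrolase A-like (LOC100651812, 0.95), retinol dehydrogenase 14-like (LOC100644668, 0.93), trypsin-1-like (LOC100646569, 0.93) and peroxisomal membrane protein PMP34-like (LOC100644134, 0.93). All 5 also had every founder above every other queen except LOC100651812, whose ranges were 1654 to 9288 CPM in founders and 295 to 1678 CPM in the others. LOC100646020 had 838 to 11469 CPM in founders and 156 to 456 CPM in the other queens. Over all genes the median r was 0.14, and 342 genes had an r above 0.8. Within the 10 founders alone the 5 genes ranked only 183rd to 1047th of 3792, with r of 0.67 to 0.92, and 679 genes had an r above 0.8 there.

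Serine proteases are the class that serpins act on, and 19 genes caught by a pattern on product names were tested. Among them were multiple coagulation factor deficiency protein 2 (LOC100645527), which is not a protease, and transmembrane protease serine 9-like (LOC100644346), which is membrane-bound by name. Of the 19, 10 rose and 2 fell in founders post diapause, where 40.2% of all genes tested rose and 40.6% fell. In founders post CO2, where 14.8% of all genes rose and 13.6% fell, 3 rose and 0 fell. LOC100645527 is in both counts of genes that rose, with edgeR adjusted p of 0.000796 and 0.0194, so the proteases that rose were fewer than these counts. Trypsin-1-like (LOC100646569), which bears the name of a digestive protease, had a median of 236 CPM in founders and 12.4 CPM in the other queens. It rose by 4.95 ± 0.72 after diapause and by 4.00 ± 0.68 after CO2 on the log2 scale, with edgeR adjusted p of 1.25e-05 and 0.000296. The gd-like protease LOC100646207, named for a protease that starts the cascade for dorsal patterning in fly eggs, rose by 1.76 ± 0.36 and by 1.77 ± 0.36, with adjusted p of 0.000209 and 0.00156. Coagulation factor X-like (LOC100649373) fell by 3.60 ± 0.51 after diapause, with an edgeR adjusted p of 1.01e-05. After CO2 its log2 fold change was 0.36 ± 0.48, with an adjusted p of 0.557.

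Of 7 tested genes matched as inhibitors of other families, 1 rose and 4 fell after diapause, against 40.2% and 40.6% of all genes, and 0 were called after CO2, against 14.8% higher and 13.6% lower of all genes. Follistatin-related protein 5-like (LOC100651536) fell by 2.48 ± 0.38 on the log2 scale and metalloproteinase inhibitor 3-like (LOC100651062), of a family that blocks matrix metalloproteinases, by 1.53 ± 0.35. The gene that rose, by 2.22 ± 0.51, was the alpha-2-macroglobulin receptor-associated protein LOC100645239, a chaperone of receptors in mammals and not itself an inhibitor. The edgeR adjusted p were 1.84e-05, 0.000533 and 0.000641.

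Genes of the pathways that serpins restrain in other insects were set beside these. Of 10 genes of phenoloxidase and melanin formation, 1 rose and 6 fell after diapause, where 40.2% of all genes rose and 40.6% fell. After CO2, where 14.8% rose and 13.6% fell, 0 of the list rose and 3 fell. All 6 that fell after diapause were laccase-like or yellow-like genes. The only phenoloxidase by name, phenoloxidase subunit A3-like (LOC100648607), was not called. Its log2 fold change was 0.25 ± 0.94 after diapause and 2.16 ± 0.98 after CO2, with edgeR adjusted p of 0.807 and 0.0897. The summed level of the list was 929 to 2876 CPM in founders post diapause and 967 to 4786 CPM in founders post CO2. In diapause queens it was 5791 to 11592 CPM, in CO2-treated queens 6073 to 10522 CPM and in mated queens 6805 to 16660 CPM. The yellow-like genes LOC100651683 and LOC100644309, of a family tied to pigment in flies, fell by 3.20 ± 0.58 and 2.14 ± 0.41 after diapause, and laccase-4-like (LOC100648007), of an oxidase family that hardens cuticle, fell by 2.30 ± 0.51. Their edgeR adjusted p were 7.29e-05, 0.000127 and 0.000467. After CO2 LOC100644309 fell by 1.50 ± 0.40 and LOC100648007 by 1.70 ± 0.52, with edgeR adjusted p of 0.0108 and 0.0214, while LOC100651683 had a log2 fold change of -1.37 ± 0.55 and an adjusted p of 0.0602. Without CO2-treated replicate 2 the adjusted p of LOC100648007 after CO2 was 0.0515. That of LOC100651683 was 0.0424 to 0.0487 without mated replicate 2, founder post CO2 replicate 2 or diapause replicate 1.

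Of 8 genes matched to the Toll and Imd pathways, 1 rose and 5 fell after diapause, beside 40.2% and 40.6% of all genes, and 0 rose and 3 fell after CO2, beside 14.8% and 13.6%. Protein toll-like (LOC100651716), a receptor of the pathway, fell by 3.21 ± 0.54 after diapause and by 1.55 ± 0.51 after CO2, with edgeR adjusted p of 4.33e-05 and 0.0293, the second lost at 0.0505 to 0.103 without CO2-treated replicate 1, 2, 3 or 4 or either of founders post CO2 1 and 3. Toll-like receptor 9-like (LOC100650475) fell by 2.30 ± 0.41 and by 1.53 ± 0.41, with adjusted p of 7.17e-05 and 0.0107. The third that fell after CO2 was a tectonin beta-propeller gene (LOC100649136) that the name pattern caught and that is not known as a part of these pathways. Its adjusted p of 0.0161 became 0.0553 to 0.0649 without CO2-treated replicate 1 or 2. The genes that fell after diapause also included cactus-2, an inhibitor of NF-kappa-B by name, with an edgeR adjusted p of 7.17e-05. It was not called after CO2. The fall after diapause thus took in a named inhibitor as well as receptors.

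Of 3 antimicrobial peptide and lysozyme genes, 1 rose and 1 fell after diapause, beside 40.2% and 40.6% of all genes, and 0 were called after CO2, beside 14.8% and 13.6%. Defensin (Def) rose by 3.44 ± 1.07 on the log2 scale in founders post diapause, with an edgeR adjusted p of 0.00588, and its log2 fold change was 2.72 ± 1.05 in founders post CO2, with an adjusted p of 0.0528. Hymenoptaecin (LOC100631061), a glycine-rich antibacterial peptide of bees, fell by 3.04 ± 1.11 after diapause, with an adjusted p of 0.0162, and had a log2 fold change of 0.82 ± 1.07 after CO2, with an adjusted p of 0.543. Single queens set these calls: without founder post diapause replicate 1 defensin had 1.51 and an adjusted p of 0.124 after diapause, and without diapause replicate 2 hymenoptaecin had -1.99 and 0.0923. After CO2 defensin passed, at 0.0263 to 0.0454, when 1 of 6 libraries was left out (CO2-treated replicate 3, mated replicate 5, replicates 4 and 5 of founders post CO2, replicates 1 and 2 of founders post diapause), and hymenoptaecin passed at 3.25 and 0.0376 without CO2-treated replicate 3.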

How the data were processed

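The authors deposited raw read counts, whole numbers per exon-sized interval, from polyA RNA of 25 queens. The submitters' processing notes name Trimmomatic, TopHat and DESeq, with no version. Interval starts were read as counted from 0, since 7598 of 13355 intervals with a deposited gene model matched a coding exon in length that way, and 368 otherwise. The table holds a part of the transcriptome, so CPM are relative to its counts and its totals are not sequencing depth.

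Counts of 22679 intervals were summed over 3861 genes and analysed in R 4.3.3 with edgeR 4.0.16 (TMM, low genes removed by filterByExpr at a count of 10 and a total of 15, 1 quasi-likelihood fit of all libraries by group, 20 residual degrees of freedom, two-sided tests, Benjamini-Hochberg over all genes, called at 0.05). Interval use was tested with diffSpliceDGE. Line 426 has 1 queen, which its own line term fits. Correlations used log2 CPM with a prior count of 2. DESeq2 1.42.0, Python 3.11.15, scipy 1.17.1 and matplotlib 3.10.9 were also used, and the scripts were tested on simulated data. Replicates are separate queens.

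The gene and all lists, patterns on product names, were chosen with earlier results of these data known. Besides the gene, the text names every tested serpin, up to 2 genes with the smallest adjusted p in each founder comparison from each list, with some of the marker lists given by counts, and the 5 genes with the highest correlation. Some list members outside this rule are named as well, to show what their list held. Alternatives were other size factors, no filter, DESeq2, the genetic line as a term, and leaving out libraries.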

Additional observations from a re-analysis of the deposited data

Results flagged for a closer look

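Dixon's limit at 95% was set beside 40 groups of 5 values, the levels of the 7 serpins in CPM and the share of the first interval. Of these values, 3 lay farther from their nearest neighbour than the limit allows. The limit, and its rate of about 1 flagged group in 20, assume normal values, while levels in CPM were skewed within groups. These flags therefore cannot tell an outlying queen from a skewed scale, and log2 levels were not checked. LOC100651307 had 17664 CPM in founder post diapause replicate 1, against 3494 CPM in the next founder of that group. It had 88.6 CPM in diapause replicate 1, against 12.4 CPM in the next diapause queen, and that library also lay nearest to the founders on the first principal component. Serpin B13-like (LOC100647974) had 386 CPM in CO2-treated replicate 3, 1 of the 2 shallow libraries, against 199.5 CPM in the next queen of its group.

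For 3 of the genes named by the rule above, the change after diapause differed from the change after CO2 in edgeR's test of the difference. Outside the serpins, list genes were named for a small adjusted p in a founder comparison, which can favour such a difference. The share of all genes called in this test is not given, so this count has no background beside it. The count also depended on diapause replicate 1, a library that stood apart. Without it further named genes passed the test, among them LOC100650109, LOC100651536 and LOC100646569, at edgeR adjusted p of 0.00704, 0.00730 and 0.0208. Serpin B13-like had a difference of -2.56 ± 0.65 on the log2 scale with an adjusted p of 0.0366, and the call was lost without any 1 of 14 libraries and, with the genetic line as a term, at 0.117. Coagulation factor X-like (LOC100649373) had -3.95 ± 0.69 with an adjusted p of 0.00717, and its means were 4.29 and 7.79 CPM in founders post diapause and founders post CO2, against 52.9 CPM in diapause and 6.20 CPM in CO2-treated queens. Vitellogenin-6-like (LOC100643258) had -5.85 ± 1.25 with an adjusted p of 0.0230, and its means were 19.2 and 18.6 CPM in founders post diapause and founders post CO2, against 5139 CPM in diapause and 85.7 CPM in CO2-treated queens. Its call was lost without any 1 of 6 libraries, at 0.0513 to 0.0659, and with the genetic line as a term at 0.0577.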

How the results depend on the processing

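The log2 differences of LOC100651307 between a founder group and its treatment group stayed within 6.36 to 9.11 after diapause and 6.32 to 7.17 after CO2 when any 1 library was left out, and within 7.09 to 9.03 and 6.47 to 6.93 under the other settings. Of the other differences, 3 moved by more than the spread between queens without the 3 libraries that stand apart: diapause minus mated was -1.30, diapause minus CO2-treated -1.17 and the route difference 2.40, while CO2-treated minus mated was -0.12. Leaving out 1 library at a time, these 3 ran from -1.16 to 1.17, from -1.11 to 0.67 and from -0.51 to 2.30.

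Calls after CO2 were the most dependent on the processing. Of all genes, 560 were higher and 515 lower; the higher calls were 338 with the genetic line as a term, 351 without both shallow libraries, 348 without the 3 libraries and 288 with no TMM factor, and the lower calls were 249, 322 and 290 under the last 3 of these settings. Leaving out 1 library gave 252 to 752 higher and 217 to 590 lower. Over the 53 other genes of the serpin, protease, melanin and immune lists, 5 were higher and 6 lower, with 11 higher by DESeq2 and 3 lower with no TMM factor, and 3 to 9 higher and 2 to 7 lower without 1 library. The 2 other serpins called higher became 1 with no filter, the line term, either set of libraries left out or no TMM factor, 5 by DESeq2, and 1 to 5 without 1 library. After diapause 5 serpins were higher in every setting but without founder post diapause replicate 1, which left 4. Between the founder groups DESeq2 called 3 genes higher and 5 lower, and leaving out 1 library gave 0 to 1 higher and 0 to 4 lower. Tests of interval use kept an adjusted p of 1 in every setting, and the line test had adjusted p of 0.441 to 1. Of 2654 alternative values of single named genes and shares, 2515 kept their direction and side of the threshold, 94 lost a call, 42 gained one and 3 correlations moved by 0.1 or more. With 7 to 304 reads outside the founders, depth limits the shares and levels there.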
